A study of Homo sapiens with 18 samples.

Results

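Aminoacyl-tRNA synthetase genes were followed in the B cell lymphoma line HAIR-M across 6 groups of libraries. The 38 genes comprised 19 cytosolic synthetase genes, 16 mitochondrial synthetase genes, whose symbols end in 2, and 3 genes of scaffold proteins that hold several cytosolic synthetases together. They were taken by symbol from the 60483 genes of the count tables. The rule uses no measured value, but the list was drawn up with earlier results of these data known. All 38 matched 1 gene identifier each, and all 38 were among the 16122 genes with enough reads to be tested.

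Aminoacyl-tRNA synthetases join amino acids to the matching transfer RNAs, most of them serving a single amino acid, and so supply the ribosome with its substrates. Human cells keep separate sets of these enzymes for the cytosol and the mitochondrion, both encoded in the nucleus. Several cytosolic synthetases and the scaffolds AIMP1, AIMP2 and EEF1E1 (also called AIMP3) form the multisynthetase complex. When amino acids run short or the cell is under stress, the transcription factor ATF4 is known to induce many cytosolic synthetase genes through C/EBP-ATF response elements, and signalling through PI3K and mTORC1 is known to raise ATF4.

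HAIR-M is a human marginal zone lymphoma line. The cells received DMSO, the solvent and control, or 5 nM copanlisib, an inhibitor of class I phosphoinositide 3-kinases (PI3K), for 4, 8 or 12 h. Each of the 6 combinations of agent and time had 3 libraries, 18 in all, sequenced as bulk RNA. All groups come from 1 cell line, and all treated groups from 1 dose. The labels give replicate numbers without saying whether replicates were separate cultures, so p-values measure the spread between these libraries, which may be technical.

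Reads assigned to genes numbered 13587017 to 25566761 per library. Levels are given as CPM, counts per 1000000 gene reads of the library after TMM scaling, which corrects for differences in RNA composition. The labels' extraction text speaks of retinas, whereas the B cell marker CD79A was present in every library at 326 to 483 CPM and 8 of 10 retina markers stayed under 1 CPM throughout. Of the 10 retina markers, the exceptions were PDE6B at 5.63 to 10.4 and NRL at 2.52 to 3.45 CPM. Among the 4 h copanlisib libraries, replicates 1 and 2 differed from all others. They had 8.73% and 5.22% of reads unmapped against at most 2.82% elsewhere, and 12.4% and 12.6% of gene reads from the mitochondrial genome against 9.07% to 10.5% elsewhere. Per gene, their counts differed from replicate 3 with a chi-square of 19.9 and 15.8 (sampling noise alone gives about 1), where the other 16 pairs of replicates gave 1.52 to 2.94. Results that use the 4 h copanlisib group are therefore given with all 3 libraries and with replicate 3 alone, which is then assumed to vary like the other groups.

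Across genes, levels were compared per kilobase of exon in the 9 DMSO libraries. WARS1, the tryptophan enzyme (chr14:100333788-100376805 in GRCh38), was highest with a median of 123 CPM per kilobase and a range of 115 to 139, clear of every other member. Glutamine enzyme QARS1 came next at a median of 69.8, followed by the lysine enzyme KARS1 at 61.1 and the alanine enzyme AARS1 at 60.0, and KARS1 and AARS1 overlapped in range. IARS2, for mitochondrial isoleucine, was the only mitochondrial gene among the upper 20, with a median of 34.4 CPM per kilobase. SARS2, for mitochondrial serine, was lowest at 0.949 CPM per kilobase, and its 30 to 87 reads per library make its values the least precise of the 38.

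Promoter sequences were examined because ATF4 acts through a known element, TGATGNAA, searched on both strands in windows from 250 bases before to 50 bases after each RefSeq transcript start (GRCh38.p14). A window was found for 33 of the 38 members, and YARS1, VARS1, VARS2, LARS1 and AARS2 were not in the table. The letters occurred in 7 of the 16 cytosolic synthetases with a window, in 0 of 3 scaffold genes and in 1 of 14 mitochondrial synthetases (YARS2). By comparison, 2.86% of the 11171 tested genes with a window and 3.62% of all 35116 windows held them. The 7 cytosolic sites are shown 5′ to 3′ along the gene, with the element in capitals, to let the shared letters be compared, and most read TTGCATCA, the reverse complement of TGATGCAA.
AARS1: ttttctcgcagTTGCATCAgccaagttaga
CARS1: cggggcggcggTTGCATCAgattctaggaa
GARS1: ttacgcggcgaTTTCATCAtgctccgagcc
IARS1: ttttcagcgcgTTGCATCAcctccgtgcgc
MARS1: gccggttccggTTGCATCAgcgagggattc
NARS1: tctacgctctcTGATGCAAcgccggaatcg
TARS1: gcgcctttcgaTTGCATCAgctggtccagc

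These windows lie at chr16:70289675-70289704 (AARS1, minus strand), chr11:3057407-3057436 (CARS1, minus), chr7:30594834-30594863 (GARS1, plus), chr9:92293692-92293721 (IARS1, minus), chr12:57488053-57488082 (MARS1, plus), chr18:57621804-57621833 (NARS1, minus) and chr5:33440956-33440985 (TARS1, plus). The element began within 33 bases of a transcript start in all but AARS1, where it began at -187. The other 4 of the 5 motifs searched were looked for in the same windows. The E-box CACGTG, which binds MYC and related factors, was in 5 of the 33 members (IARS1, AIMP2, CARS2, EARS2 and MARS2) against 12.6% of tested genes. The ETS letters CCGGAAGT were in 8 members (CARS1, HARS1, NARS1, TARS1, WARS1, EARS2, HARS2 and PARS2) against 9.74%. The cyclic AMP response element TGACGTCA occurred in AIMP2 alone against 3.6%, and the forkhead letters GTAAACA in CARS1 alone against 3.62%. In all windows, rather than genes, these 4 motifs occurred in 7.26%, 4.14%, 1.85% and 3.42%. None of the matches printed overlapped another, and a match is a run of letters, not a measured binding site.

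HARS1 and HARS2, the cytosolic and mitochondrial histidine enzymes, start back to back on opposite strands with 84 bases between their RefSeq starts (chr5:140691371-140691454). That stretch is shown along HARS2 with an ETS match at each end in capitals, because the 2 genes share it and responded in opposite directions. The window of MARS2, the member with the largest response, is shown with its E-box in capitals (chr2:197705347-197705374, plus strand).
HARS1 to HARS2: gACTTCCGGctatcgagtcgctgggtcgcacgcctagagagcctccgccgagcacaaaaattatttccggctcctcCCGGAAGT
MARS2: tgcgcctctcaCACGTGctgtcagaacg

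Under copanlisib nearly all cytosolic synthetases fell. With an adjusted p under 0.05 over all 16122 genes (edgeR quasi-likelihood test), 15 of 19 cytosolic synthetases were lower and 0 higher at 4 h, 18 were lower and 1 higher at 8 h, and 18 were lower and 1 higher at 12 h. Of all genes tested, 20.7%, 18.3% and 16.5% were lower and 17.7%, 14.8% and 13.8% were higher at these times. The median log2 fold change of the cytosolic synthetases was -0.23 at 4 h, -0.46 at 8 h and -0.41 at 12 h, beside 0.0095, 0.015 and 0.0044 for all genes. Of the 19, 15 were lower at all 3 times in the fit with all libraries, beside 8.32% of all genes in that fit. In bulk RNA, less RNA of a gene per cell and fewer cells that hold it cannot be told apart.

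With copanlisib replicate 3 alone at 4 h, 17 cytosolic synthetases were lower and 1 higher, with a median of -0.24. In that fit 13.4% of 17007 genes were lower and 8.86% higher. EPRS1 and KARS1, not past the threshold with all 3 libraries, passed it there at -0.21 and -0.19. LARS1 did not pass in either fit at 4 h.

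**Figure D1:**
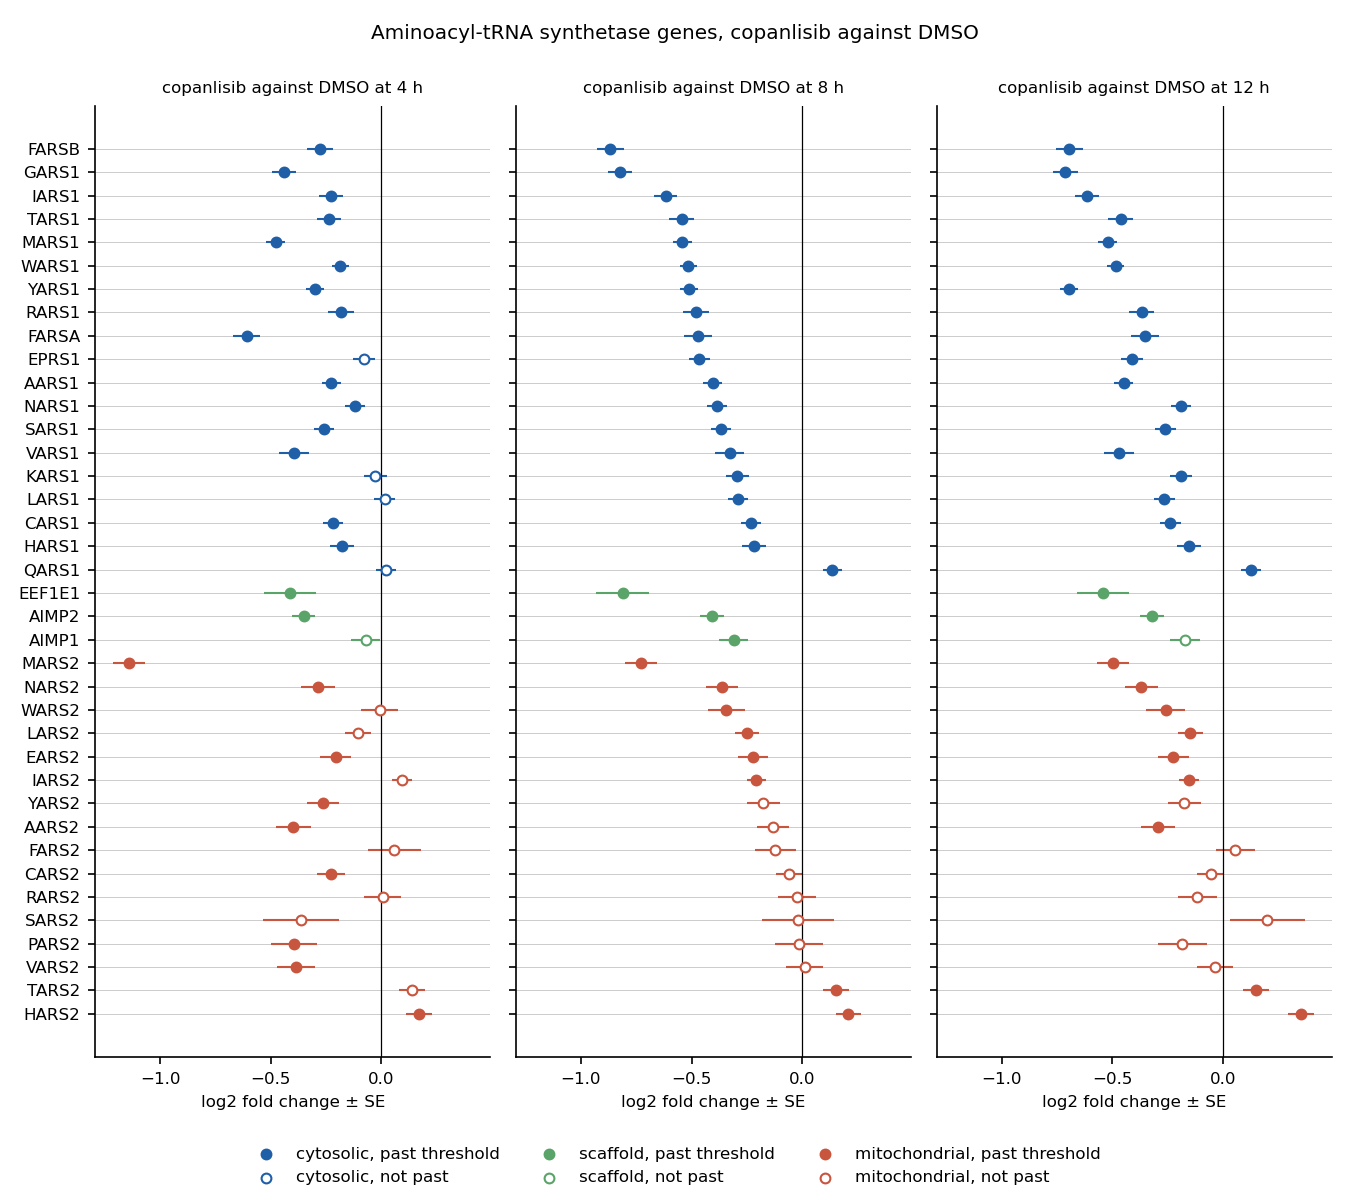
Log2 fold change with its standard error (x axis) of each of the 38 genes (rows, ordered within class by the 8 h value) for copanlisib against DMSO at 4, 8 and 12 h. Filled points passed the adjusted p of 0.05; at 8 and 12 h every cytosolic synthetase lies left of 0 except QARS1, while mitochondrial genes lie on both sides, with MARS2 farthest left at 4 h.

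The members that belong to the multisynthetase complex as enzymes were EPRS1 (glutamate and proline), IARS1 (isoleucine), LARS1 (leucine), MARS1 (methionine), QARS1 (glutamine), KARS1 (lysine) and RARS1 (arginine). Of these 7, 3 were lower and 0 higher at 4 h, and 6 were lower and 1 higher at both 8 and 12 h. The other 12 cytosolic synthetases, outside the complex, were all lower at all 3 times. Beside these counts, 20.7%, 18.3% and 16.5% of all genes were lower and 17.7%, 14.8% and 13.8% higher at 4, 8 and 12 h with all libraries. At 4 h the complex synthetases had a median log2 fold change of -0.079 and the others of -0.25. At 8 h these medians were -0.46 and -0.44, and at 12 h -0.37 and -0.46. With replicate 3 alone the 4 h medians were -0.21 and -0.25.

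MARS1 fell the most within the complex at 4 h. It measured 234, 237 and 236 CPM in the DMSO libraries and 165, 169 and 174 CPM with copanlisib (log2 fold change -0.48 ± 0.043 (SE), adjusted p = 1.75e-09), and the value with replicate 3 alone was -0.43. Its levels were 263, 272 and 268 CPM against 187, 188 and 177 CPM at 8 h (-0.54 ± 0.042) and 231, 236 and 244 CPM against 168, 171 and 157 CPM at 12 h (-0.52 ± 0.043). Each copanlisib library was under every DMSO library of its time.

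IARS1 fell less at 4 h than at 8 or 12 h by the test of the time differences given with those comparisons. The DMSO libraries had 242, 256 and 243 CPM at 4 h and the copanlisib libraries 224, 218 and 190.1 CPM, with replicate 3 lowest (log2 fold change -0.23 ± 0.052 (SE), adjusted p = 0.00114; -0.38 with replicate 3 alone). After 8 h IARS1 had 272, 290.4 and 289.6 CPM without and 179.8, 183 and 192 CPM with copanlisib (log2 fold change -0.62 ± 0.052 (SE), adjusted p = 8.46e-10). By 12 h the values were 262, 252 and 246 and 167, 171 and 158 CPM (-0.61 ± 0.053). The groups did not overlap at any time, and IARS1 fell by 34.8% at 8 h and fell by 34.7% at 12 h.

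LARS1 had the smallest change of the cytosolic synthetases at 4 h, with 142, 148 and 141 CPM in DMSO and 151, 148 and 136 CPM with copanlisib, in overlapping ranges (0.015 ± 0.047; -0.073 with replicate 3 alone, neither past the threshold). After 8 h it was 168, 186 and 177 CPM against 140.3, 145 and 148 CPM (-0.29 ± 0.047), and at 12 h 146, 141 and 141 CPM against 116, 122 and 119 CPM (-0.26 ± 0.048). LARS1, which is also known as a leucine sensor upstream of mTORC1, fell at 8 and 12 h. EPRS1 gave -0.079 (not past the threshold), -0.46 and -0.41, and -0.21 at 4 h with replicate 3 alone. KARS1 gave -0.027 (not past the threshold), -0.29 and -0.19, and its 4 h value with replicate 3 alone was also -0.19. RARS1 fell at each time, by values of -0.18, -0.48 and -0.37 on the log2 scale (-0.35 at 4 h with replicate 3 alone).

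QARS1 (chr3:49095932-49105135) was the single cytosolic synthetase that rose. At 4 h its ranges overlapped, with 311, 312 and 322 CPM in DMSO and 303, 312 and 344 CPM with copanlisib (0.021 ± 0.044, adjusted p = 0.75; 0.13 (adjusted p = 0.04997) with replicate 3 alone). After 8 h it had 347, 328 and 329 CPM in DMSO and 368, 371 and 365 CPM with copanlisib (log2 fold change 0.14 ± 0.044 (SE), adjusted p = 0.0171). At 12 h the values were 388, 382 and 386 CPM and 436, 415 and 410.4 CPM (log2 fold change 0.13 ± 0.044 (SE), adjusted p = 0.0285). All treated libraries of 8 and 12 h were above all DMSO libraries of the same time, but the difference was small, and the call was lost on leaving out any of 3 of the 6 libraries at 8 h or 5 of the 6 at 12 h.

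Outside the complex, FARSB and GARS1 had the largest falls at 8 h. GARS1 (chr7:30594681-30634033) makes glycyl-tRNA for both the cytosol and the mitochondrion, as KARS1 does for lysine. At 4 h it had 229, 230.1 and 222 CPM in DMSO and 174, 174 and 153 CPM with copanlisib (log2 fold change -0.44 ± 0.053 (SE), adjusted p = 2.88e-07; -0.56 with replicate 3 alone). At 8 h it had 208, 221 and 208 CPM in DMSO and 113, 123 and 124 CPM with copanlisib (log2 fold change -0.82 ± 0.054 (SE), adjusted p = 8.01e-12). At 12 h it had 165, 163 and 162 CPM in DMSO and 98.8, 108 and 92.9 CPM with copanlisib (log2 fold change -0.71 ± 0.055 (SE), adjusted p = 2.21e-10). GARS1 also declined over time in the DMSO cells, so the treated mean of 99.7 ± 7.39 CPM (SD, n = 3) at 12 h compares with 227 ± 4.31 CPM in DMSO at 4 h.

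FARSB and FARSA are the 2 kinds of subunit of the cytosolic phenylalanine enzyme, and both fell at each time. FARSB (chr2:222570536-222656337) had 136, 137 and 129 CPM in DMSO and 117, 116 and 98.1 CPM with copanlisib at 4 h (-0.28 ± 0.059; -0.44 with replicate 3 alone). It then had 124, 136 and 130.5 CPM against 68.1, 72.5 and 73.4 CPM at 8 h (log2 fold change -0.87 ± 0.061 (SE), adjusted p = 2.69e-11) and 132, 124 and 131 CPM against 78.6, 85.0 and 75.8 CPM at 12 h (-0.69 ± 0.061). At 8 h FARSB fell by 45.1%, the largest fall of the 19 cytosolic synthetases at any of the 3 times. FARSA had 117, 116 and 117 CPM in DMSO and 69.4, 71.5 and 88.4 CPM with copanlisib at 4 h (log2 fold change -0.61 ± 0.063 (SE), adjusted p = 2.17e-08). Here replicates 1 and 2 were well under replicate 3, and with replicate 3 alone the value was -0.40. FARSA measured 107, 106 and 112 CPM against 78.0, 77.6 and 79.0 CPM at 8 h (-0.47 ± 0.062) and 103, 107 and 113 CPM against 87.7, 82.4 and 83.0 CPM at 12 h (-0.35 ± 0.063), always without overlap.

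YARS1, the tyrosine enzyme, stood among the largest falls at 12 h. It had 268, 265 and 272 CPM in DMSO and 220.1, 218 and 214 CPM with copanlisib at 4 h (-0.30 ± 0.04; -0.32 with replicate 3 alone). Values were 248, 258 and 251 and 170.1, 184 and 178 CPM at 8 h (-0.51 ± 0.041). They were 219, 227 and 216 and 139, 138 and 132 CPM at 12 h (log2 fold change -0.70 ± 0.041 (SE), adjusted p = 1.76e-12). Both arms declined with time and the treated arm declined further, and against DMSO YARS1 fell by 38.3% at 12 h.

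HARS1 had the smallest of the cytosolic falls at 8 and 12 h. Its levels were 79.5, 85.7 and 91.9 CPM in DMSO and 76.6, 75.7 and 75.4 CPM with copanlisib at 4 h (-0.18 ± 0.054; -0.19 with replicate 3 alone). They were 94.8, 95.3 and 97.4 and 83.2, 84.1 and 80.0 CPM at 8 h (-0.22 ± 0.053), and 94.1, 95.1 and 102 and 89.5, 90.7 and 82.1 CPM at 12 h (log2 fold change -0.15 ± 0.053 (SE), adjusted p = 0.0305). The 12 h call was lost when DMSO replicate 2 or 3 or copanlisib replicate 3 was left out. HARS1 transcripts overlap those of HARS2 on the other strand, and counting without strand gave -0.20, -0.21 and -0.15 at the 3 times.

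WARS1, the most abundant member, is also known as an interferon-induced gene. It supplied 17.1% to 19.3% of the summed cytosolic CPM of each library. Its log2 fold changes were -0.19 ± 0.039 at 4 h (-0.24 with replicate 3 alone), -0.51 ± 0.039 at 8 h and -0.48 ± 0.039 at 12 h, each past the threshold. The treated libraries of 12 h held 569, 575 and 543 CPM against 778, 780.5 and 800.5 CPM in DMSO.

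The other 6 cytosolic synthetases were lower at each time. AARS1 (alanine) gave log2 fold changes of -0.23, -0.41 and -0.45 at 4, 8 and 12 h. TARS1 (threonine) gave -0.24, -0.54 and -0.46, and VARS1 (valine) -0.39, -0.33 and -0.47. SARS1 (serine) gave -0.26, -0.37 and -0.26. CARS1 (cysteine) stayed between -0.24 and -0.22, and NARS1 (asparagine) gave -0.12, -0.38 and -0.19. With replicate 3 alone the 4 h values were -0.17 for AARS1, -0.38 for TARS1, -0.16 for VARS1, -0.25 for SARS1, -0.21 for CARS1 and -0.24 for NARS1, all past the threshold. In VARS1 the 2 libraries that stand apart were lowest at 4 h, at 94.7 and 101 CPM beside 126 CPM in replicate 3 and 141, 139.6 and 141 CPM in DMSO.

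**Figure D2:**
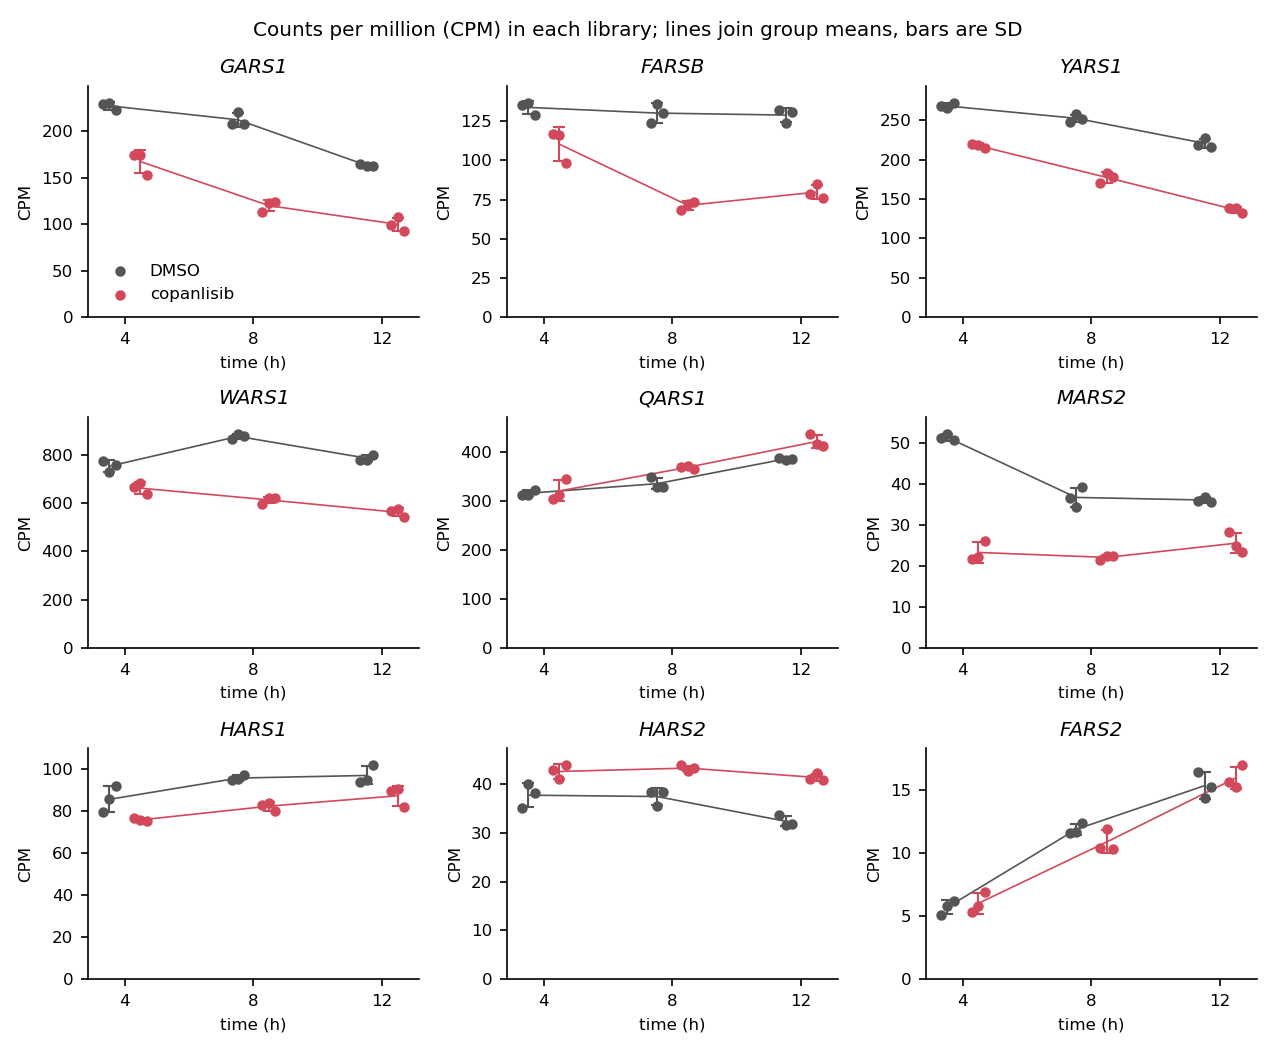
CPM (y axes, from 0) in each of the 18 libraries against hours of treatment (x axes) for 9 genes, grey for DMSO and red for copanlisib, with lines through the group means and bars of 1 SD (n = 3). GARS1, FARSB, YARS1, WARS1, MARS2 and HARS1 sit lower with copanlisib, QARS1 and HARS2 higher at 8 and 12 h, and FARS2 climbs with time in both arms.

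Between the cytosolic synthetases with and without the TGATGNAA letters, the ranges of the response overlapped at each time. The 7 with the letters had median log2 fold changes of -0.23, -0.54 and -0.46 at 4, 8 and 12 h, and the 9 without them -0.18, -0.47 and -0.35. FARSB, which fell the most at 8 h, had no match in its window, and GARS1, the second, carried TTTCATCA. These values are a description of 16 genes without a test.

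Of the 3 scaffold genes, 2 were lower at 4 h, 3 at 8 h and 2 at 12 h. Beside these counts, 20.7%, 18.3% and 16.5% of all genes were lower at 4, 8 and 12 h with all libraries. EEF1E1 was the least abundant scaffold gene and fell the most. It had 13.4, 10.6 and 12.1 CPM in DMSO and 9.26, 10.6 and 6.96 CPM with copanlisib at 4 h (log2 fold change -0.41 ± 0.12 (SE), adjusted p = 0.0062; -0.77 with replicate 3 alone). At 8 h it had 10.4, 11.6 and 12.2 CPM in DMSO and 6.51, 6.49 and 6.36 CPM with copanlisib (log2 fold change -0.81 ± 0.12 (SE), adjusted p = 6.78e-06), and at 12 h 11.5, 12.6 and 13.6 and 8.39, 9.09 and 8.51 CPM (-0.54 ± 0.12). Ranges did not overlap at any time, although at 4 h the highest treated library lay just under the lowest DMSO library. AIMP2 gave -0.35 (-0.28 with replicate 3 alone), -0.41 and -0.32, all past the threshold. AIMP1 gave -0.07, -0.31 and -0.17, of which only the 8 h value passed, and -0.24 (adjusted p = 0.0123) at 4 h with replicate 3 alone.

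Of the 16 mitochondrial synthetases, 8 were lower and 1 higher at 4 h, 6 lower and 2 higher at 8 h, and 7 lower and 2 higher at 12 h (3 lower and 1 higher without DMSO replicate 1). Their median log2 fold changes were -0.22, -0.13 and -0.15. With replicate 3 alone at 4 h, the median was -0.19. Among all genes tested, 20.7%, 18.3% and 16.5% were lower and 17.7%, 14.8% and 13.8% higher at 4, 8 and 12 h. With all libraries, the share of mitochondrial synthetases called higher did not exceed that of all genes at any time. The 3 called lower at 12 h without DMSO replicate 1 were near the 16.5% of all genes lower with all libraries. The mitochondrial set held members in both directions and, at 8 h, as many without a call as with one. Those lower at all 3 times were EARS2 (glutamate), MARS2 and NARS2, or MARS2, NARS2 and YARS2 with replicate 3 alone at 4 h.

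MARS2, the mitochondrial methionine enzyme (chr2:197705369-197708387), had the largest change of all 38 genes. At 4 h it had 51.1, 52.1 and 50.6 CPM in DMSO and 21.6, 22.1 and 26.1 CPM with copanlisib (log2 fold change -1.14 ± 0.072 (SE), adjusted p = 3.75e-12). MARS2 thus fell by 54.7%, and with replicate 3 alone the log2 fold change was -0.97. At 8 h it had 36.5, 34.4 and 39.1 CPM in DMSO and 21.5, 22.4 and 22.3 CPM with copanlisib (log2 fold change -0.73 ± 0.073 (SE), adjusted p = 1.32e-08). At 12 h it had 35.9, 36.7 and 35.5 CPM in DMSO and 28.1, 25.0 and 23.5 CPM with copanlisib (log2 fold change -0.50 ± 0.073 (SE), adjusted p = 7.48e-06). The treated level stayed between 21.5 and 28.1 CPM from 4 to 12 h while the DMSO level dropped, so the difference narrowed.

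NARS2, for mitochondrial asparagine, fell at each time. It had 28.6, 25.3 and 30.4 CPM in DMSO and 23.4, 22.8 and 22.8 CPM with copanlisib at 4 h (-0.29 ± 0.076; -0.29 with replicate 3 alone), 31.9, 36.9 and 33.2 and 26.3, 26.9 and 26.0 CPM at 8 h (-0.36 ± 0.073), and 30.6, 30.7 and 31.1 and 25.8, 21.2 and 24.4 CPM at 12 h (-0.37 ± 0.076). WARS2, for mitochondrial tryptophan, was not past the threshold at 4 h, with 16.3, 18.4 and 16.1 and 17.3, 18.4 and 14.9 CPM (-0.007 ± 0.084; -0.19 with replicate 3 alone). WARS2 fell at 8 h, from 16.2, 17.4 and 18.8 CPM in DMSO to 13.2, 13.6 and 14.2 CPM (-0.34 ± 0.084), and at 12 h, from 16.6, 15.5 and 16.6 to 13.5, 14.4 and 12.97 CPM (-0.26 ± 0.087). The treated ranges of both genes lay under those of DMSO wherever the change was called.

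The next 3 mitochondrial genes had 4 h values that depended on copanlisib replicates 1 and 2 or on few reads. AARS2 (alanine) had 26.4, 24.4 and 25.1 CPM in DMSO and 18.1, 17.4 and 21.9 CPM with copanlisib (log2 fold change -0.40 ± 0.079 (SE), adjusted p = 0.000259), but -0.20 (adjusted p = 0.135) with replicate 3 alone. VARS2 (valine) had 40.4, 47.4 and 44.8 and 31.5, 28.9 and 41.5 CPM (log2 fold change -0.39 ± 0.086 (SE), adjusted p = 0.000786), but -0.096 (adjusted p = 0.419) with replicate 3 alone. In both genes replicate 3 lay nearer to the DMSO libraries than replicates 1 and 2 did, and the VARS2 ranges overlapped through it. At 12 h AARS2 fell, with 30.8, 34.1 and 28.6 CPM in DMSO and 24.9, 25.0 and 26.4 CPM with copanlisib (-0.29 ± 0.076), and at 8 h it gave -0.13 ± 0.074, not past the threshold. VARS2 gave 0.01 ± 0.082 at 8 h, from 47.8, 45.9 and 47.7 and 48.9, 46.1 and 47.5 CPM, and -0.037 ± 0.082 at 12 h. PARS2 (proline), with 129 to 235 reads per library, had 9.69, 11.8 and 11.4 and 8.20, 8.95 and 8.08 CPM at 4 h (-0.40 ± 0.11; -0.45 with replicate 3 alone, past the threshold in both), and -0.014 and -0.18 later, not past it.

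HARS2, for mitochondrial histidine, rose at all 3 times. At 4 h it had 35.0, 40.0 and 38.2 CPM in DMSO and 42.9, 41.0 and 43.9 CPM with copanlisib (log2 fold change 0.17 ± 0.058 (SE), adjusted p = 0.0226; 0.21 with replicate 3 alone). At 8 h it had 38.4, 35.5 and 38.4 CPM in DMSO and 43.8, 42.8 and 43.3 CPM with copanlisib (log2 fold change 0.21 ± 0.058 (SE), adjusted p = 0.00608), and at 12 h 33.6, 31.6 and 31.9 and 41.0, 42.3 and 40.8 CPM (log2 fold change 0.35 ± 0.059 (SE), adjusted p = 4.57e-05). The treated libraries held a nearly constant 40.8 to 43.9 CPM at all 3 times, above every DMSO library, while the DMSO level was lowest at 12 h. Its partner across the shared 84 bases, HARS1, fell at each of these times. HARS2 overlaps HARS1 on the opposite strand and ZMAT2 on the same strand in GENCODE 29. Counting without strand gave 0.19, 0.21 and 0.33 at the 3 times, which cannot address the overlap with ZMAT2.

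TARS2, for mitochondrial threonine, had 54.3, 50.9 and 53.9 CPM in DMSO and 57.6, 53.3 and 63.9 CPM with copanlisib at 4 h (0.14 ± 0.059, adjusted p = 0.0687; 0.28 (adjusted p = 0.00117) with replicate 3 alone). It rose at 8 h, with 65.5, 61.6 and 66.5 and 71.1, 72.5 and 71.5 CPM (log2 fold change 0.15 ± 0.057 (SE), adjusted p = 0.0404), and at 12 h, with 67.6, 67.6 and 69.0 and 76.5, 78.2 and 72.0 CPM (log2 fold change 0.15 ± 0.057 (SE), adjusted p = 0.048). The ranges at 8 and 12 h did not overlap, yet both adjusted p-values lay close to 0.05, and at 8 h the call was lost on leaving out any 1 of the 6 libraries.

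IARS2, for mitochondrial isoleucine, had 125, 126 and 126 CPM in DMSO and 137, 136 and 129 CPM with copanlisib at 4 h (0.092 ± 0.045; 0.038 with replicate 3 alone, neither past the threshold). It fell at 8 h, with 144, 147 and 156 CPM in DMSO and 126, 129.8 and 131 CPM with copanlisib (-0.21 ± 0.044), and at 12 h, with 148, 143 and 139 and 131, 131 and 125 CPM (-0.15 ± 0.045). SARS2 had 3.33, 2.77 and 3.43 CPM in DMSO and 2.04, 2.58 and 2.76 CPM with copanlisib at 4 h (-0.36 ± 0.17; -0.19 with replicate 3 alone) and 3.07, 2.73 and 2.96 CPM in DMSO and 3.61, 3.07 and 3.37 CPM with copanlisib at 12 h (0.20 ± 0.17). It gave -0.019 ± 0.16 at 8 h and was not past the threshold at any time. Its transcripts overlap the far more abundant MRPS12 on the opposite strand. The other mitochondrial members were EARS2 at -0.21, -0.22 and -0.22 and LARS2 (leucine) at -0.11, -0.25 and -0.15, lower at each time except LARS2 at 4 h. CARS2 (cysteine) was lower only at 4 h (-0.23; -0.14 (adjusted p = 0.206) with replicate 3 alone). YARS2 (tyrosine) was likewise lower at 4 h alone (-0.26; -0.31 with replicate 3 alone, past the threshold). With replicate 3 alone the 4 h value of EARS2 was -0.19 (adjusted p = 0.137). RARS2 (arginine) and FARS2 (phenylalanine) did not pass at any time, with log2 fold changes of -0.12 to 0.0055 and -0.12 to 0.058. With replicate 3 alone their 4 h values were -0.21 (adjusted p = 0.132) and 0.27 (adjusted p = 0.253), and that of LARS2 was -0.086 (adjusted p = 0.519).

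Several of these calls rested on 1 library. At 4 h those of EARS2 and RARS1 were lost without DMSO replicate 2, YARS2 without DMSO replicate 1, HARS1 without DMSO replicate 3, HARS2 without DMSO replicate 1 or 3 or copanlisib replicate 1, and NARS1 without any DMSO replicate or copanlisib replicate 3. At 8 h EARS2 was lost without DMSO replicate 1 or 3 or copanlisib replicate 2, and HARS2 without DMSO replicate 2. At 12 h EARS2 was lost without DMSO replicate 1 or 2 or copanlisib replicate 2, IARS2 without DMSO replicate 1 or copanlisib replicate 3, WARS2 without any of 4 libraries, and LARS2 and TARS2 without any of 5. The directions were kept in all of these fits.

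**Figure D3:**
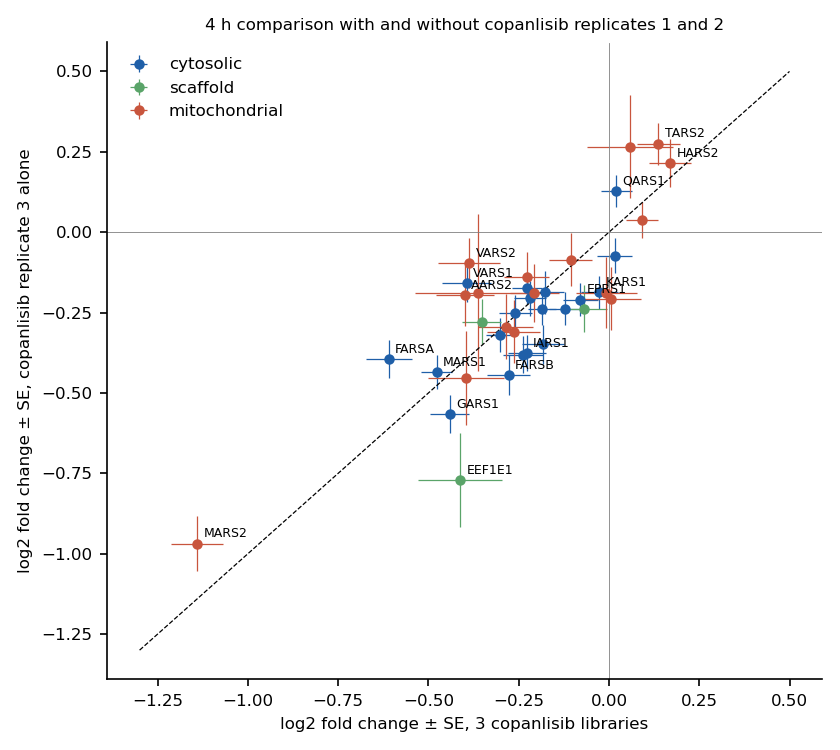
Log2 fold change ± SE at 4 h of each of the 38 genes with all 3 copanlisib libraries (x axis) and with replicate 3 alone (y axis), coloured by class; the dashed line marks equal values. MARS2 is farthest down on both axes, FARSA, VARS1, VARS2 and AARS2 lie above the line and GARS1, FARSB and EEF1E1 below it.

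The summed levels of both compartments were lower with copanlisib at each time. Summed over the 19 cytosolic synthetases, DMSO libraries held 4298 ± 34.4, 4552 ± 50.2 and 4153 ± 38.7 CPM at 4, 8 and 12 h (SD, n = 3). Copanlisib libraries held 3720 ± 94.1, 3407 ± 51.4 and 3206 ± 97.2 CPM, and the ranges did not overlap at any time. The 16 mitochondrial synthetases summed to 561 ± 3.63, 609.7 ± 11.1 and 611 ± 7.71 CPM in DMSO, and to 509 ± 11.4, 557 ± 0.334 and 569.9 ± 11.8 CPM with copanlisib, also without overlap. A large part of that difference at 4 h came from MARS2, with means of 51.3 and 23.3 CPM. At 8 and 12 h MARS2 (36.7 and 22.1, then 36.0 and 25.5) and IARS2 (148.9 and 128.8, then 143.4 and 128.9) gave a large part. Of the 16 genes, 1, 2 and 2 were called higher at 4, 8 and 12 h. The log2 ratio of cytosolic to mitochondrial CPM was 2.94 ± 0.019 in DMSO and 2.87 ± 0.069 with copanlisib at 4 h, where the ranges overlapped. At 8 h it was 2.90 ± 0.029 against 2.61 ± 0.021, and at 12 h 2.77 ± 0.027 against 2.49 ± 0.029, without overlap. The change in the ratio was -0.069 at 4 h, -0.29 at 8 h and -0.27 at 12 h, and -0.15 at 4 h with replicate 3 alone. Without copanlisib 4 h replicate 3 it was -0.031 at 4 h. Leaving out GARS1 and KARS1, whose products serve both compartments, gave -0.069, -0.28 and -0.27. These are descriptions over chosen genes and carry no p-value.

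**Figure D4:**
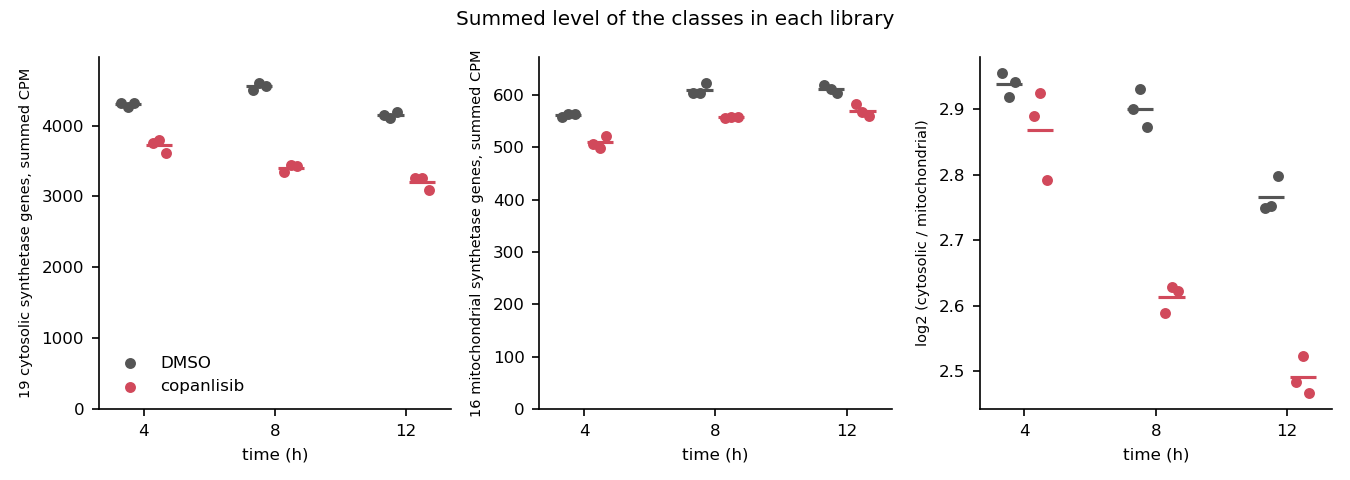
Summed CPM of the 19 cytosolic synthetases (left), of the 16 mitochondrial synthetases (middle) and the log2 ratio of the 2 sums (right; axis not from 0) in each of the 18 libraries at 4, 8 and 12 h, grey for DMSO and red for copanlisib, bars at the group means. Both sums are lower with copanlisib at each time, and the ratio separates at 8 and 12 h, from 2.90 to 2.61 and from 2.77 to 2.49.

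Pairing each mitochondrial enzyme with the cytosolic enzyme for the same amino acid gave 16 pairs, with EPRS1 used for both EARS2 and PARS2 and FARSA for FARS2. The cytosolic partner had the lower log2 fold change in 8 of 16 pairs at 4 h (11 of 16 with replicate 3 alone), 15 of 16 at 8 h and 15 of 16 at 12 h. The median of cytosolic minus mitochondrial log2 fold change was 0.00073, -0.34 and -0.24 (-0.057 at 4 h with replicate 3 alone). Threonine gave the widest gap at 8 h, where TARS1 fell and TARS2 rose (-0.70), and also at 12 h (-0.61). Tyrosine (-0.52) and histidine (-0.50) followed at 12 h. Methionine was the exception at 8 h, where MARS2 fell further than MARS1 (0.19), and asparagine at 12 h, where NARS2 fell further than NARS1 (0.18).

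**Figure D5:**
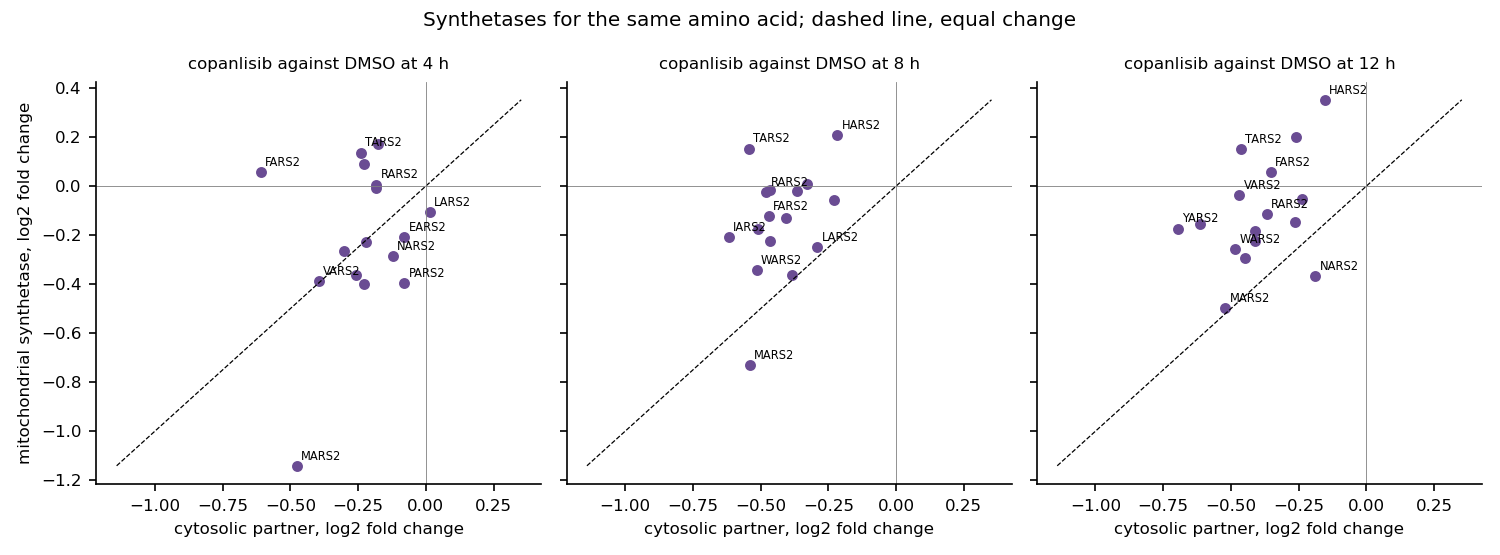
Log2 fold change of each mitochondrial synthetase (y axis) against that of the cytosolic synthetase for the same amino acid (x axis) at 4, 8 and 12 h, 16 pairs a panel; the dashed line marks equal change and names are left off where points crowd. At 8 and 12 h 15 of 16 points lie above the line, at 4 h 8 of 16.

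Whether the copanlisib effect differed between times was tested directly, as the difference of 2 log2 fold changes. From 4 to 8 h, 12 of 19 cytosolic synthetases had an effect that went lower and 0 higher, where 9.86% of all genes went lower and 9.29% higher. Among mitochondrial synthetases 2 went lower (IARS2 and WARS2) and 2 higher (MARS2 and VARS2), and no scaffold gene passed. The mitochondrial count of 4 became 2 without DMSO 4 h replicate 3, DMSO 8 h replicate 2, copanlisib 4 h replicate 1 or 2, or copanlisib 8 h replicate 1. Calls among all genes also dropped, from 3086 to 1742 without DMSO 4 h replicate 3 and to 1965 without DMSO 8 h replicate 2. They were 1772 without copanlisib 4 h replicate 1 and 1650 without replicate 2. With copanlisib replicate 3 alone at 4 h the counts were 6 cytosolic lower (AARS1, EPRS1, FARSB, GARS1, IARS1 and WARS1), 1 mitochondrial lower (IARS2) and 0 higher, and 1.34% of all genes went lower and 1.06% higher. FARSB had the largest difference of the cytosolic set, -0.59 with all libraries and -0.43 with replicate 3 alone.

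From 8 to 12 h no member passed the test (edgeR, 0 of 38), 3 had an unadjusted p under 0.05, and DESeq2 and limma-voom also gave 0. Of all genes only 0.0558% passed. In the fit without copanlisib 4 h replicates 1 and 2, which estimates the common spread from the remaining 16 libraries, 1.03% of all genes passed, among them NARS1 with a difference of 0.20. From 4 to 12 h, 9 cytosolic synthetases went lower and 1 higher (FARSA), and among mitochondrial ones 1 went lower (IARS2) and 2 higher (MARS2 and VARS2), beside 7.69% lower and 8.98% higher of all genes. Replicate 3 alone gave 7 cytosolic lower and 0 higher and 1 mitochondrial higher (MARS2), beside 2.66% and 2.63% of all genes. Without copanlisib 4 h replicate 3, 7 rather than 3 mitochondrial synthetases passed, while calls among all genes also went up, from 2688 to 5781. MARS2 had the largest time difference of all members, 0.64 with all libraries and 0.47 with replicate 3 alone.

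Some cytosolic and mitochondrial synthetase genes also moved with time in DMSO alone, and several of the counts were near the shares of all genes. From 4 to 8 h, 8 cytosolic synthetases rose and 2 fell and 6 mitochondrial ones rose and 2 fell, beside 13.9% higher and 16% lower of all genes. LARS1 (0.30) and AARS1 (0.22) led the cytosolic rises, and CARS1 (-0.36) and TARS1 (-0.29) were the 2 that fell. From 8 to 12 h, 13 cytosolic synthetases fell and 2 rose (QARS1 and VARS1), beside 12.4% lower and 13.4% higher of all genes. In that span 1 mitochondrial gene went each way (FARS2 higher, HARS2 lower), which did not exceed those shares. Over the whole span from 4 to 12 h, 3 cytosolic synthetases rose and 6 fell and 7 mitochondrial ones rose and 4 fell, beside 23.2% and 25.4% of all genes. The cytosolic counts and the mitochondrial falls over that span were near those shares.

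FARS2, the mitochondrial phenylalanine enzyme, showed the largest change with time. It climbed in DMSO from 5.11, 5.80 and 6.21 CPM at 4 h through 11.6, 11.7 and 12.3 CPM at 8 h to 16.4, 14.3 and 15.2 CPM at 12 h (log2 fold change from 4 to 12 h 1.42). With copanlisib it went from 5.33, 5.77 and 6.91 through 10.4, 11.9 and 10.3 to 15.6, 15.2 and 16.96 CPM (1.41 from 4 to 12 h; 1.22 with replicate 3 alone). FARS2 did not pass the test between treated and control cells at any time. LARS2 (0.54) and VARS1 (0.50) also rose over the DMSO span, while CARS1 (-0.66), MARS2 (-0.51), GARS1 (-0.48) and TARS1 (-0.44) fell.

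In copanlisib-treated cells 14 cytosolic synthetases fell from 4 to 12 h and 3 rose (HARS1, QARS1 and VARS1), while 7 mitochondrial ones rose and 2 fell. Of all genes 26.3% fell and 25.6% rose. Replicate 3 alone at 4 h gave 12 cytosolic lower and 3 higher and 5 mitochondrial higher with 0 lower, beside 18.1% lower and 19.2% higher of all genes. GARS1 (-0.75), CARS1 (-0.68), YARS1 (-0.68) and TARS1 (-0.66) fell the most, with -0.62, -0.68, -0.65 and -0.51 with replicate 3 alone.

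Genes of pathways around the synthetases were taken from 6 lists. Their counts stand beside the shares of all genes, of which 20.7%, 18.3% and 16.5% were lower and 17.7%, 14.8% and 13.8% higher at 4, 8 and 12 h (13.4% and 8.86% at 4 h with replicate 3 alone). The list of ATF4 and amino acid response genes, without synthetases, had 30 tested members, of which 27 fell and 2 rose at 4 h, 21 fell and 1 rose at 8 h, and 25 fell and 2 rose at 12 h (medians -0.48, -0.43 and -0.53; 27 and 1 at 4 h with replicate 3 alone). CHAC1, which degrades glutathione, gave -1.83, -0.49 and -1.48. SLC7A5, the light chain of a leucine transporter, gave -1.44, -1.02 and -1.25, and the cystine transporter SLC7A11 gave -1.03, -1.20 and -1.55. With replicate 3 alone the 4 h values of these 3 genes were -1.63, -1.26 and -1.08. Stanniocalcin gene STC2 gave -1.33 (-1.39 with replicate 3 alone), -0.74 and -0.94. All of these values passed the threshold.

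Genes that process, modify or export tRNA were lower too: of 29 tested, 21, 18 and 19 fell at 4, 8 and 12 h and 0 rose (medians -0.32, -0.25 and -0.28; 16 fell at 4 h with replicate 3 alone). YRDC, which helps to make a modified base next to the anticodon, gave -0.89 (-0.77 with replicate 3 alone), -0.58 and -0.67. The tRNA methyltransferase subunit TRMT61A gave -1.14 (-0.68 with replicate 3 alone), -0.56 and -0.58. CTU1 and CTU2 act together in tRNA thiolation. CTU2 gave -0.87 (-0.53 with replicate 3 alone), -0.41 and -0.43, whereas CTU1 passed only at 4 h (-1.06, and -0.34 with adjusted p = 0.0756 with replicate 3 alone).

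Elongation factors of the cytosol bring the charged tRNAs to the ribosome or move the ribosome on, and of 6 tested, 2 fell at 4 h, 1 fell and 1 rose at 8 h, and 1 fell and 2 rose at 12 h (1 fell at 4 h with replicate 3 alone). Counts of 1 or 2 of 6 genes say little beside the shares of all genes, 20.7%, 18.3% and 16.5% lower and 17.7%, 14.8% and 13.8% higher. EIF5A fell at each time (-0.46, -0.34 and -0.39; -0.33 at 4 h with replicate 3 alone), and EEF2 rose at 8 h (0.17) and 12 h (0.16). EEF1A1 rose at 12 h (0.17), and EEF1D passed only at 4 h (-0.33, and -0.10 with adjusted p = 0.163 with replicate 3 alone). Genes of mitochondrial translation other than synthetases numbered 22, of which 8 fell and 5 rose at 4 h, 10 fell at 8 h and 5 fell at 12 h, with 0 rising at the later times (7 fell and 0 rose at 4 h with replicate 3 alone). The 5 that rose at 4 h and the 5 that fell at 12 h were near the shares of all genes, 17.7% and 16.5%. PUS1, a pseudouridine synthase, gave -0.98 (-0.74 with replicate 3 alone), -0.55 and -0.29, and the mitochondrial elongation factor GFM1 gave -0.18 (-0.31 with replicate 3 alone), -0.55 and -0.36. TRMT10C, a subunit of mitochondrial RNase P, gave -0.54 (-0.79 with replicate 3 alone), -0.60 and -0.38, and GTPBP3, a tRNA modification enzyme, -0.52, -0.31 and -0.52, with -0.16 (adjusted p = 0.183) at 4 h with replicate 3 alone.

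Among 15 genes of pathways that sense uncharged tRNA and amino acids, 4 rose and 3 fell at 4 h. At 8 h 2 rose and 3 fell, and at 12 h 3 rose and 2 fell. These counts were near the shares of all genes, 17.7%, 14.8% and 13.8% higher and 20.7%, 18.3% and 16.5% lower. SESN3, of the sestrin family of leucine sensors, rose at each time (0.69, 0.25 and 0.22; 0.52 at 4 h with replicate 3 alone) and SESN1 at 4 h (0.66, and 0.57 with replicate 3 alone). EIF2S1, the subunit of eIF2 that stress kinases phosphorylate, fell at each time (-0.34, -0.62 and -0.47; -0.57 at 4 h with replicate 3 alone). CASTOR2 passed only at 8 h (1.01 ± 0.39). WARS1 fell while most genes of an interferon-induced list did not: of 12 tested, 8, 8 and 9 rose and 3, 1 and 1 fell at 4, 8 and 12 h (6 rose and 1 fell at 4 h with replicate 3 alone). GBP4 rose by 0.68 (0.58 with replicate 3 alone), 0.62 and 0.74, IFIT2 by 0.92 (0.57 with replicate 3 alone), 0.46 and 0.57, and IFIT3 by 0.60 (0.39 with replicate 3 alone), 0.36 and 0.42. ISG15 fell at 4 h (-0.60) but gave -0.026 (adjusted p = 0.902) with replicate 3 alone.

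Marker genes of other cell types were mostly near 0. Among 7 T and NK cell markers, CD3D and CD3G were at 0 in all libraries and NKG7 alone exceeded 1 CPM, with the list summing to 7.42 to 17.4 CPM over all libraries. NKG7 fell at 4 h (-0.40, and -0.17 with adjusted p = 0.367 with replicate 3 alone) and at 12 h (-0.44). Of 6 myeloid markers 4 stayed under 1 CPM and the list summed to 2.83 to 5.86 CPM. Of the 2 tested, S100A9 rose at 12 h (2.18 ± 0.35). Of the 2 retina markers tested, PDE6B rose at 12 h (0.33 ± 0.12). The 5 stromal and epithelial markers summed to 56.5 to 60.4, 52.4 to 58.0 and 49.1 to 53.6 CPM in DMSO at 4, 8 and 12 h. With copanlisib they summed to 53.3 to 65.2, 73.8 to 75.8 and 73.2 to 76.2 CPM, with COL1A2 at most 0.0994 CPM, and 3 of 4 tested were higher at 8 and 12 h. KRT8 was also higher at 4 h with replicate 3 alone (0.34, against 0.013 with all libraries). With all libraries, the 7 B cell markers also shifted, with median log2 fold changes of 0.11, 0.26 and 0.47 at 4, 8 and 12 h. At 12 h they summed to 1807 to 1822 CPM in DMSO and 2207 to 2262 CPM with copanlisib. The part of these shifts in the synthetase values was not tested.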

How the data were processed

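For each library the authors deposited 1 table of raw read counts per gene, with 3 count columns by strand and no normalization. Per the submitters' processing notes, reads were handled with CASAVA 1.7 and STAR 2.5.2b on hg38; for the annotation release, the sources used here name none. Counts of column 4 were used, which held 94.3% to 95.3% of stranded reads, although the kit in the labels does not mark strand. The 4 summary lines were left out, with 67.5% to 75.2% of reads assigned to genes. Groups came from the titles. Genes with enough reads in a group (filterByExpr) were fitted with edgeR 4.0.16 (R 4.3.3), using TMM scaling and a quasi-likelihood test over all 18 libraries, with 1 mean per group and no covariate, and p-values were adjusted by Benjamini-Hochberg over all 16122 genes. The common biological coefficient of variation was 0.05. The script was tested on simulated data. DESeq2 1.42.0 and limma 3.58.1 (voom) were alternatives, beside other scalings, filters, strand columns, a stricter threshold, a replicate block and libraries left out. Gene positions and exon lengths came from GENCODE 29, and promoters from RefSeq (GRCh38.p14). Members, gene lists and tests were chosen with earlier results of these data known. Per-library values were given for the 4 largest and 2 smallest changes of cytosolic and scaffold genes at each time, the 3 largest of each sign of mitochondrial genes and the 2 largest time differences; other lists were named by up to 4 of their largest called changes.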

Additional observations from a re-analysis of the deposited data

Results flagged for a closer look

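The copanlisib effect on 16 members differed between 4 and 8 h and on 13 between 4 and 12 h by the test of the difference itself (edgeR, log2 scale, later minus earlier). Among all genes, 9.86% went lower and 9.29% higher from 4 to 8 h, and 7.69% and 8.98% from 4 to 12 h. Of 16 mitochondrial synthetases, 2 went lower and 2 higher from 4 to 8 h, and 1 and 2 from 4 to 12 h, near those shares. From 4 to 8 h the effect went lower for FARSB (-0.59), IARS1 (-0.39), EPRS1 (-0.39), GARS1 (-0.38), WARS2 (-0.34), WARS1 (-0.33), TARS1 (-0.31), LARS1 (-0.31), IARS2 (-0.30), RARS1 (-0.30), KARS1 (-0.27), NARS1 (-0.26), YARS1 (-0.21) and AARS1 (-0.18). It went higher for MARS2 (0.41) and VARS2 (0.40). From 4 to 12 h it went lower for FARSB (-0.42), YARS1 (-0.40), IARS1 (-0.39), EPRS1 (-0.33), WARS1 (-0.30), LARS1 (-0.28), GARS1 (-0.27), IARS2 (-0.25), TARS1 (-0.22) and AARS1 (-0.22), and higher for MARS2 (0.64), VARS2 (0.35) and FARSA (0.26).

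With copanlisib replicate 3 alone at 4 h, 9 of the 16 and 6 of the 13 differences no longer passed. Those lost from 4 to 8 h were YARS1 (-0.20), WARS2 (-0.16), MARS2 (0.24), TARS1 (-0.17), LARS1 (-0.22), RARS1 (-0.14), VARS2 (0.10), KARS1 (-0.11) and NARS1 (-0.15). Those lost from 4 to 12 h were IARS2 (-0.19), TARS1 (-0.083), LARS1 (-0.19), VARS2 (0.058), GARS1 (-0.15) and FARSA (0.040), while VARS1 passed only there (-0.31). MARS2, YARS1, WARS1, AARS1, IARS1, EPRS1 and FARSB passed from 4 to 12 h in both fits.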

How the results depend on the processing

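Of 350 alternative counts and ratios per class, 329 kept their direction and lay within 1.5 times the reported count or within the spread. Without the filter on low counts, 1 mitochondrial synthetase (reported: 2) was called in DMSO from 8 to 12 h. At an adjusted p under 0.01, calls fell to 5 of 9 mitochondrial synthetases for copanlisib at 12 h, 2 of 4 for the 4 to 8 h difference, 1 of 2 in DMSO from 8 to 12 h and 7 of 11 from 4 to 12 h, and to 6 of 10 cytosolic and scaffold genes for the 4 to 12 h difference. Without copanlisib 4 h replicates 1 and 2, the 4 to 8 h difference was called in 6 of 12 cytosolic and scaffold genes and 1 of 4 mitochondrial ones, the 8 to 12 h difference in 1 rather than 0, the 4 to 12 h difference in 1 mitochondrial gene rather than 3, and 5 rather than 9 mitochondrial genes moved from 4 to 12 h of copanlisib. The 4 h change of the log2 ratio was then -0.15 (reported: -0.069), and -0.031 without copanlisib 4 h replicate 3. Leaving out 1 library at a time gave 4 to 7 mitochondrial synthetases for copanlisib at 12 h (4 without DMSO replicate 1), 2 to 6 for the 4 to 8 h difference (2 without DMSO 4 h replicate 3, DMSO 8 h replicate 2 or copanlisib 4 h replicate 1 or 2 or 8 h replicate 1), 2 to 7 for the 4 to 12 h difference (7 without copanlisib 4 h replicate 3) and 1 to 2 in DMSO from 8 to 12 h (1 without 8 h replicate 1 or 12 h replicate 2). The causes of these shifts were not tested, beyond the smaller number of libraries or the stricter threshold itself.

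Of 6118 alternative values of single members, 5577 kept direction and call, 279 lost the call, 56 gained it, 205 uncalled values changed sign and 1 reversed. The reversal was AIMP2 under copanlisib from 4 to 12 h, at -0.021 (edgeR adjusted p = 0.835) with counts without strand, where EIF2AK1 overlaps it on the other strand. Replicate numbers were not used as pairs in the reported fit, and 3 libraries per group cannot settle whether they pair the samples. Deviations of same-numbered libraries had correlations of 0.182, 0.00953 and 0.397 in the libraries of 4 h. Those of 8 h gave 0.0588, 0.0337 and 0.0708, and those of 12 h gave -0.0983, -0.0196 and -0.195. With the replicate number as a block, 373 of 380 member values kept their call, 4 lost it, 2 gained it and 1 uncalled value changed sign, and 17, 22 and 21 cytosolic and scaffold genes were called at 4, 8 and 12 h.

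Among all genes, calls at 4 h went from 6195 to 3778 without copanlisib replicates 1 and 2 and to 3733 with only the 6 libraries of 4 h. The 4 to 8 h difference went from 3086 to 409 genes without those 2 libraries, to 1062 at the stricter threshold, and to 1650 to 6353 on leaving out 1 library, with the highest count without copanlisib 4 h replicate 3. The 4 to 12 h difference went likewise from 2688 to 900, 1134 and 1596 to 5781. The 8 to 12 h difference went from 9 genes to 176 without those 2 libraries, 35 without the filter, 27 with DESeq2, 5 without strand, 0 at the stricter threshold and 0 to 5 on leaving out 1 library. At the stricter threshold DMSO calls went from 4810 to 3100 from 4 to 8 h and from 4151 to 2646 from 8 to 12 h. Depth limits SARS2, with 30 to 87 reads per library, the most.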
